A study of Mus musculus with 6 samples.

Results

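Complement is a cascade of plasma proteins that tags microbes and dying cells for uptake. Its classical arm starts when C1q binds a target, its alternative arm is kept going by factor B and properdin, and both meet at C3, whose cleavage yields an opsonin and the peptide C3a. Most complement proteins come from the liver, but C1q is made chiefly by macrophages and dendritic cells. The 8 genes described here were chosen by name, with earlier results of these data known: the C1q chain genes C1qa, C1qb and C1qc, the central component C3, the convertase subunit genes C4b and Cfb, the properdin gene Cfp, and C3ar1, which encodes the receptor for C3a. All 8 were found among the 25700 gene identifiers of the count tables.

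Bulk RNA-Seq was performed on bone marrow–derived macrophages (BMDMs) of C57BL/6J mice aged 8 to 10 weeks, with each library made from 1 mouse. Marrow cells were grown in medium with M-CSF at 100 ng/ml in both groups, received either albumin (control, n = 3) or 300 μM heme-albumin (heme, n = 3) on day 3, and were harvested on day 7. A culture of marrow with M-CSF yields mostly macrophages but was not sorted, and the controls carried the albumin vehicle. Control libraries held 30509099 to 32994595 counts and heme libraries 27201038 to 32366848 counts. Hmox1, the heme-degrading enzyme gene that marks heme exposure, lay at 547.3 to 650.7 CPM in control and 20480 to 21790 CPM in heme libraries, so every library matched its label. Levels are TMM-normalized CPM, that is, counts scaled to a common library size and corrected for library composition. Differences are log2 fold changes of heme over control from edgeR's quasi-likelihood test, and a gene was called at a Benjamini-Hochberg adjusted p under 0.05 over all 12433 genes tested.

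The C1q genes sit side by side on the minus strand of chromosome 4 (GRCm38) in the order C1qb (ENSMUSG00000036905, chr4:136880129-136886187), C1qc (ENSMUSG00000036896, chr4:136889804-136893065) and C1qa (ENSMUSG00000036887, chr4:136895917-136898803), a cluster of 18.7 kb. C3 (ENSMUSG00000024164, chr17:57203970-57228136), C4b (ENSMUSG00000073418, chr17:34728380-34743882) and Cfb (ENSMUSG00000090231, chr17:34856374-34862518) lie on chromosome 17, C3ar1 (ENSMUSG00000040552, chr6:122847138-122856161) on chromosome 6 and Cfp (ENSMUSG00000001128, chrX:20925454-20931555) on the X chromosome, all on the minus strand as well. RefSeq promoter windows on GRCm38.p6, which run from 250 bases before to 50 bases after the start of a gene, were found for 5 of the 8 genes (C1qb, C1qc, C3, Cfp and C3ar1). The stretches before the annotated exons are shown for 2 C1q genes, whose mRNA fell, and for C3, which did not pass the test. Capitals mark matches to any of 6 motifs, searched on both strands.
C1qb promoter, chr4:136886201-136886450, minus strand: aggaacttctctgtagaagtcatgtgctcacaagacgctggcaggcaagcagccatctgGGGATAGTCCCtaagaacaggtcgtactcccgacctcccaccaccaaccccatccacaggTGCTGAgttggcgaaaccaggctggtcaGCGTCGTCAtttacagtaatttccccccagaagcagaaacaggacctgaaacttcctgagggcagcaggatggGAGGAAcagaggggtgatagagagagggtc
C1qc promoter, chr4:136893066-136893164, minus strand: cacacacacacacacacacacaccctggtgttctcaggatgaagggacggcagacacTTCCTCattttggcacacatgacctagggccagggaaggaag
C3 promoter, chr17:57228137-57228386, minus strand: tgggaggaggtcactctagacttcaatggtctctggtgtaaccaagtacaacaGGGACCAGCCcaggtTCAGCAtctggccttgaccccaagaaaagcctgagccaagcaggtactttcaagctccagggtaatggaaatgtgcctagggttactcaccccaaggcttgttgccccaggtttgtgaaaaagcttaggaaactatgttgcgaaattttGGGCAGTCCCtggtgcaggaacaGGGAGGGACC

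The motifs were the antioxidant response element TGACNNNGC, the ETS core GAGGAA, the MAF core TGCTGA, the AP-1 site TGANTCA, an interferon-type element (GAAA repeated after 2 other bases) and an NF-κB-type site (GGGA and CC with 4 bases between them). The C1qb window held 1 match to the antioxidant response element, which occurred in 12.4% of all 32851 windows, 1 MAF core (19.5% of windows) and 1 ETS core (28.3%). It also held 2 NF-κB-type matches that overlap each other (20.7% of windows). The C1qc window held 1 ETS core and 1 NF-κB-type match, the latter in the annotated first exon and thus not printed. The C3 window held 3 NF-κB-type matches and 1 MAF core. The Cfp window held 1 antioxidant response element and 2 ETS cores, and the C3ar1 window 1 AP-1 site (7.81% of windows) and 1 MAF core. No member window held the interferon-type element (3.44% of windows). These matches describe the letters alone.

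Heme-treated BMDMs carried far less mRNA of all 3 C1q chains than control BMDMs, with a smaller drop of Cfp and C3ar1 and no called difference of C3 or Cfb. Of the 8 genes, 6 were called lower and 0 higher with edgeR (0 higher with DESeq2 and limma-voom also), and 2 did not pass the test. One of the 6, C4b, passed the filter on low counts only through the controls, where it was high, so the filter favoured its being tested. With a filter at 1 CPM it was not tested and 5 were lower. With no filter beyond 1 count it was called lower (edgeR adjusted p = 1.9e-05). Among all genes tested, 62.5% were called, 30.8% lower and 31.7% higher, so the share called is read against that background. The groups did not overlap for 6 of the 8 genes, and for 68.8% of all genes tested. The median log2 fold change of the 8 genes, C4b included, was -2.41, against 0.00 over all genes tested. It is the midpoint between C1qb (-3.93) and Cfp (-0.89), and no gene lay near it. Only 0.957% of tested genes were called with a log2 fold change of -3 or below, and C1qa, C1qb, C1qc and C4b were among them. When tested against a log2 fold change of 1 instead of 0, these 4 genes were still called lower, as were 5.07% of all genes. In a bulk sample, fewer cells that make a transcript and less of it per cell cannot be told apart.

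**Figure D1:**
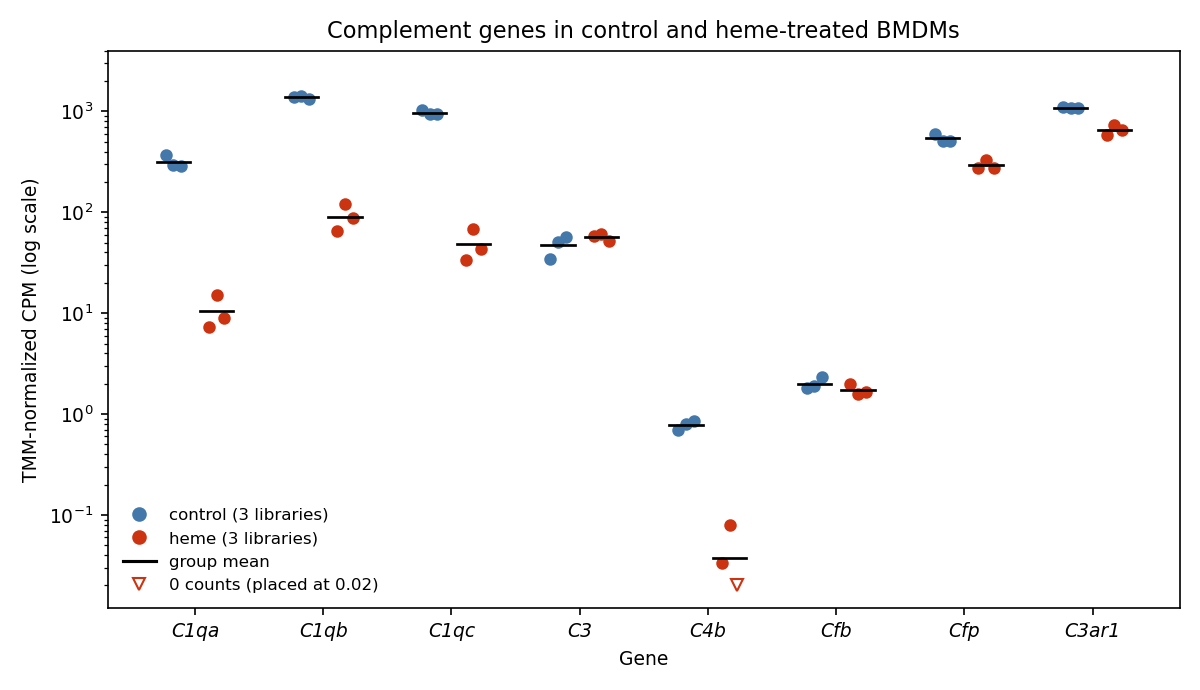
TMM-normalized CPM (log scale) of the 8 complement genes, with 1 point per library (3 control, 3 heme) and black lines at the group means; the open triangle is a library with 0 counts, placed at 0.02. The groups are apart for C1qa, C1qb, C1qc, C4b, Cfp and C3ar1 and overlap for C3 and Cfb.

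C1qa, the gene of the C1q A chain, measured 368, 294.3 and 286 CPM in the control libraries and 7.24, 15.3 and 8.91 CPM in the heme libraries. The highest heme library thus stayed far under the lowest control. Its log2 fold change was -4.93 (standard error 0.24, adjusted p = 2.02e-07), a 30.4-fold lower level, and among the 8955 tested genes with a mean log2 CPM of at least 3 it ranked 12th by depth of fall. C1qb, the gene of the B chain, measured 1403, 1417 and 1331 CPM in control and 65.4, 120 and 87.2 CPM in heme libraries. It showed the smallest drop of the 3, with a log2 fold change of -3.93 (standard error 0.20, adjusted p = 2.09e-07). C1qc, the gene of the C chain, measured 1045, 936.1 and 943.3 CPM in control and 33.6, 67.8 and 43.3 CPM in heme libraries (log2 fold change -4.34, standard error 0.23, adjusted p = 3.01e-07). Heme replicate 2 was the highest heme library for all 3 chains, and without it the log2 fold changes were the largest in size, -5.29 for C1qa, -4.18 for C1qb and -4.66 for C1qc.

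Together, the C1q genes took up 0.309%, 0.283% and 0.274% of all counts in the control libraries. In the heme libraries they took up 0.00975% (95% exact binomial interval 0.00941% to 0.0101%), 0.0189% (0.0184% to 0.0194%) and 0.0129% (0.0125% to 0.0134%). The intervals cover counting error only, and the heme libraries differed from each other by more than that error. Summed, the 3 genes gave 2670 ± 130 CPM in control and 150 ± 49.2 CPM in heme BMDMs (SD, n = 3).

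The C1q protein is assembled from equal numbers of A, B and C chains, so the balance among the 3 transcripts was also compared, as ratios within a library that no scaling between libraries can change. C1qa made up 11.8% ± 1.13 of the C1q counts in control and 6.91% ± 0.561 in heme libraries (SD, n = 3). C1qb went the other way, from 51.8% ± 1.86 to 61.1% ± 1.79, and C1qc made up 36.4% ± 0.907 and 32.0% ± 1.23. All 3 shares lay apart in the 2 groups. The log2 ratio of C1qa to C1qb was -1.93, -2.27 and -2.22 in control and -3.18, -2.98 and -3.29 in heme libraries, a difference of -1.01 (standard error 0.14). The ratio of C1qc to C1qb differed by -0.42 (standard error 0.08) and that of C1qa to C1qc by -0.58 (standard error 0.08). None of these 3 ratios overlapped between the groups, and each gave p = 0.1 in a two-sided exact permutation test (0.1 also after Benjamini-Hochberg adjustment over the 3), the smallest p that 3 libraries against 3 can reach. The ratio of C1qa to C1qc follows from the other ratios, and each share from the other shares, so these results are not independent.

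**Figure D2:**
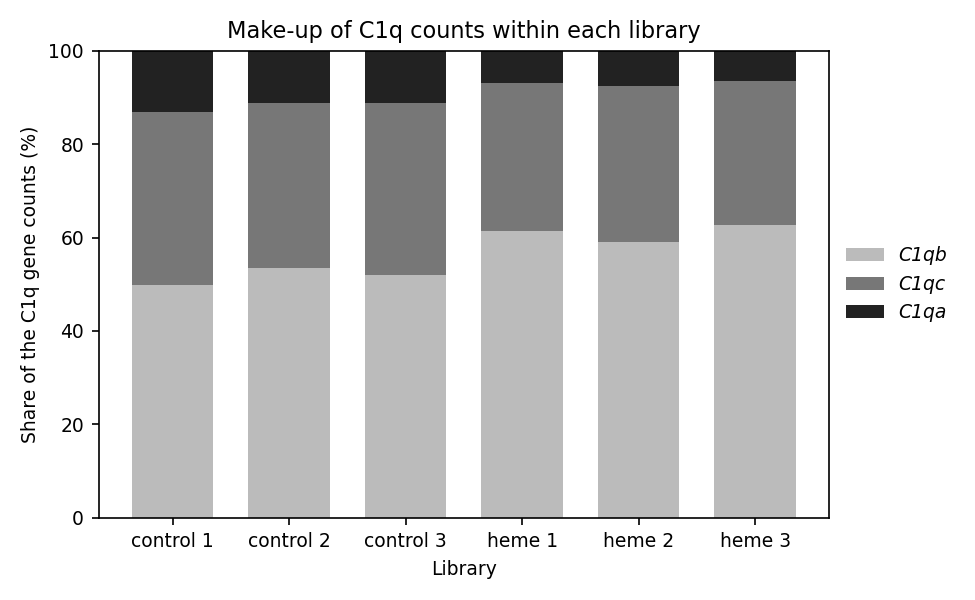
Share (%) of C1qb, C1qc and C1qa in the summed C1q counts of each of the 6 libraries, stacked from 0 to 100. C1qa takes 11.1% to 13.1% in control and 6.4% to 7.51% in heme libraries.

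Per kilobase of exon, the order of the 8 levels changed between the groups. In control BMDMs, C1qb led at 1272 ± 42.2 CPM per kilobase (SD, n = 3), followed by C1qc at 504.8 ± 31.5, Cfp at 311.2 ± 30.7, C1qa at 303.9 ± 43.4 and C3ar1 at 253.5 ± 3.52. Cfp and C1qa overlapped and did not differ beyond their spread. In heme BMDMs, Cfp at 168.5 ± 18.4 and C3ar1 at 152.9 ± 17.3 CPM per kilobase came first, with overlapping libraries, ahead of C1qb at 83.5 ± 25.3 and C1qc at 25.0 ± 9.12. C3 at 11.2 ± 0.896 and C1qa at 10.1 ± 4.06 CPM per kilobase overlapped each other. Cfb and C4b were lowest in both groups, at 0.711 ± 0.0970 and 0.138 ± 0.0149 in control and 0.616 ± 0.0769 and 0.00659 ± 0.00696 in heme BMDMs.

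C3, the hub of all complement arms, measured 34.7, 50.9 and 56.8 CPM in control and 57.9, 61.7 and 52.5 CPM in heme libraries. The groups overlapped, and the log2 fold change of 0.27 (standard error 0.16) did not pass the test (adjusted p = 0.151). It depended on single controls: it was 0.42 without control replicate 3 (adjusted p = 0.0401) and 0.09 without control replicate 1 (adjusted p = 0.398), the lowest library. Cfb, the factor B gene whose product forms the alternative C3 convertase, measured 1.82, 1.88 and 2.32 CPM in control and 1.99, 1.58 and 1.65 CPM in heme libraries (log2 fold change -0.20, standard error 0.19, adjusted p = 0.378). It rested on 40 to 76 counts per library, and the readthrough gene Gm20547, which overlaps it on the same strand, had counts within 3 of it in every library, so that their reads cannot be told apart.

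C4b, a gene of complement C4, the partner of C2 in the classical C3 convertase, was barely detected. It had 25, 27 and 28 counts in control and 1, 2 and 0 counts in heme libraries. The groups did not overlap, but the gene passed the filter on low counts only through the controls, where it was high, and its fitted log2 fold change of -4.28 (standard error 0.53, adjusted p = 8.63e-05) depends on how near-zero counts are handled. From the counts alone, 80 against 3, the level was 21.4-fold lower with heme (95% exact binomial interval 7.07 to 106, counting error only). C4a, a near copy whose reads C4b may share, was not analysed here.

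Cfp, the properdin gene, whose product stabilizes the alternative convertase, measured 601.8, 507.6 and 511.5 CPM in control and 274.2, 329.4 and 274.2 CPM in heme libraries. C3ar1 measured 1105, 1075 and 1095 CPM in control and 582.4, 731.3 and 660.7 CPM in heme libraries. Both genes were lower in every heme library than in any control. The log2 fold changes were -0.89 for Cfp (standard error 0.10, adjusted p = 4.02e-05) and -0.73 for C3ar1 (standard error 0.09, adjusted p = 6.93e-05), which correspond to 1.85-fold and 1.66-fold lower levels. Against a log2 fold change of 1, neither gene passed. As with the C1q genes, heme replicate 2 held the most of both transcripts among the heme libraries.

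The other complement genes were called in both directions, in shares near those of all genes tested. Of 51 other complement genes on a list, 50 were in the count tables and 21 passed the filter on low counts, 2 of them (C1s1 and Cd46) only through the heme libraries. Of these 21, 8 were called higher, 5 lower and 8 did not pass the test, with a median log2 fold change of 0.10, where all genes tested gave 31.7% higher and 30.8% lower. Without TMM, that is, scaled by library size alone, the median of all genes moved to -0.22, and 5 of the list were higher and 8 lower. All genes tested then gave 2580 higher and 5814 lower.

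Of the list's C1 complex and lectin pathway genes, 6 were tested. Of these, 3 were called higher and 1 lower (31.7% and 30.8% of all genes tested). C1s1 encodes the protease C1s of the C1 complex. It had 1, 1 and 2 counts in control and 44, 42 and 49 counts in heme libraries. The gene was called higher (log2 fold change 5.26, standard error 0.37, adjusted p = 1.85e-06), a value that rests on few control counts. C1qbp, named for binding C1q although its product lies mostly in mitochondria, rose from 42.9 ± 1.85 to 73.8 ± 3.22 CPM (SD, n = 3), with an adjusted p = 6.47e-06 from edgeR. Fcna, the gene of the lectin pathway recognition protein ficolin A, fell from 31.7 ± 2.94 to 5.56 ± 0.205 CPM (SD, n = 3), a log2 difference of -2.51 (adjusted p = 5.45e-08). The collectin gene Colec12 was at 110.1 ± 6.90 and 109.7 ± 6.09 CPM (log2 fold change -0.01, adjusted p = 0.957), but was called lower without TMM (-0.23, adjusted p = 0.0176).

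Among the membrane regulators, Cd59a, which encodes an inhibitor of the membrane attack complex, had a log2 fold change of -0.50 (adjusted p = 0.00565). Cr1l, the gene of the mouse membrane regulator Crry, had one of 0.33 (adjusted p = 0.00188), and of 0.11 without TMM, where it did not pass (adjusted p = 0.199).

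Of the receptor genes, the integrin chains of complement receptors 3 and 4 were higher with heme: Itgb2 measured 798.5 to 907.7 CPM in control and 1667 to 1772 CPM in heme libraries, and Itgax 14.8 to 15.9 and 32.6 to 40.7 CPM (adjusted p = 2.91e-06 and 2.51e-06). Itgam had a log2 fold change of 0.42 (adjusted p = 0.00271), which did not pass without TMM (0.19, adjusted p = 0.0938), and a gene that overlaps it (Gm49368) may share its reads. Receptors of the anaphylatoxins were lower, as C3ar1 was: C5ar1, the C5a receptor gene, measured 637.6, 331.2 and 452 CPM in control and 244, 337.9 and 259.6 CPM in heme libraries. These ranges overlapped, and its log2 fold change of -0.76 (adjusted p = 0.0112) did not pass without heme replicate 1 (adjusted p = 0.0516). Cd93, which encodes a membrane protein once taken for a C1q receptor, fell from 742.3 ± 44.7 to 331.5 ± 41.3 CPM (SD, n = 3), with an adjusted p = 5.5e-06 from edgeR. Calr, the gene of calreticulin, which binds C1q on the surface of dying cells, had a log2 fold change of 0.37 (adjusted p = 0.0196) that did not pass without TMM (0.15, adjusted p = 0.307). Nor did it pass once control replicate 3 (adjusted p = 0.0706), heme replicate 2 (0.0654) or heme replicate 3 (0.0514) was left out. Its partner in uptake, Lrp1, was at 969.7 ± 302 and 837.7 ± 152 CPM and did not pass the test (adjusted p = 0.388).

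**Figure D3:**
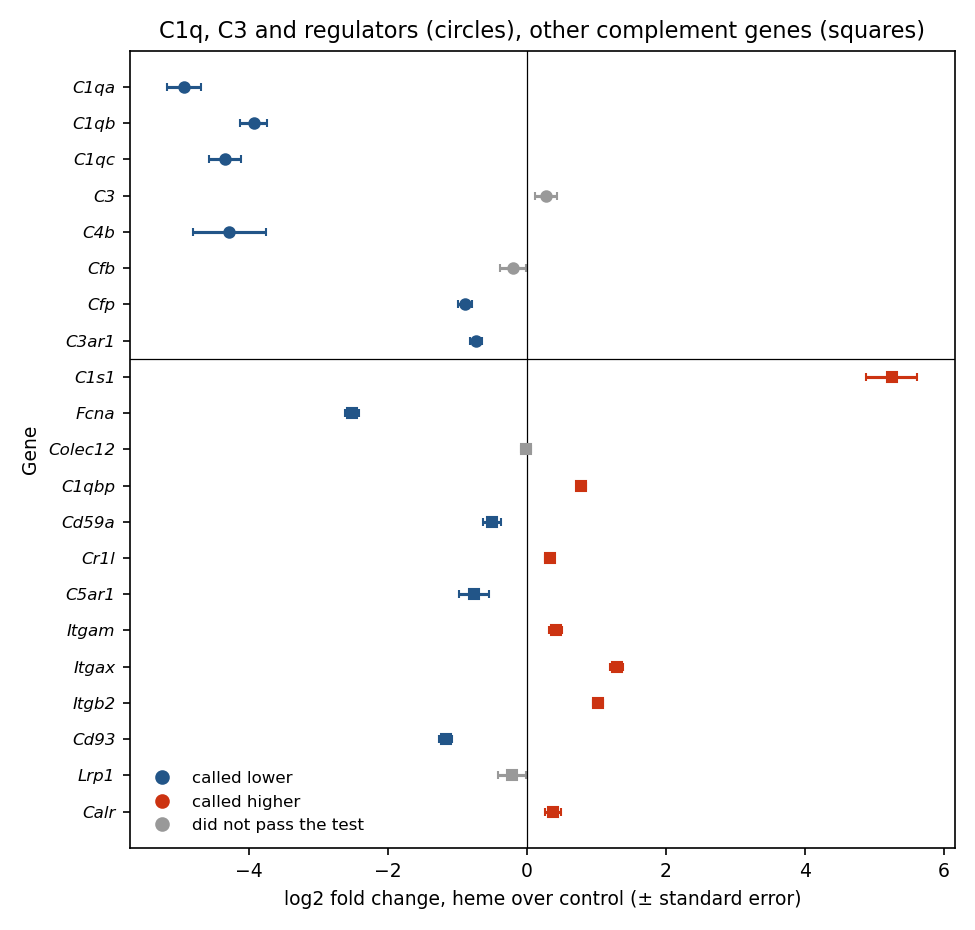
Log2 fold change (heme over control, x axis) with its standard error for the 8 complement genes (circles) and the 13 other complement genes described (squares). Blue genes were called lower, red genes higher, and grey genes did not pass the test; estimates run from -4.93 for C1qa to 5.26 for C1s1.

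Over the 6 libraries, the genes whose log2 level, set to the control mean, ran closest to the mean of the C1q genes were sought among the 8955 genes with a mean log2 CPM of at least 3. The nearest was Tfrc, the transferrin receptor gene, with a root mean square difference of 0.25 (log2). It went from 314.1 to 383.6 CPM in control to 16.3 to 19.0 CPM in heme libraries. Next came Gm5431, a predicted gene (0.40), Cmpk2, a mitochondrial nucleotide kinase gene (0.41), Scd1, the stearoyl-CoA desaturase gene (0.42), and Irf7, an interferon regulatory factor gene (0.43). For comparison, C1qa, C1qb and C1qc themselves differed from their mean by 0.38, 0.34 and 0.04. The likeness rests mostly on the gap between the groups, since among the heme libraries Gm5431, Cmpk2 and Scd1 were highest in replicate 3, and the C1q genes, Tfrc and Irf7 in replicate 2. Irf7 overlaps Phrf1, a gene whose reads may be shared with it. The genes nearest to C3 were Trrap (0.09), Ednrb (0.10), Rnf19b (0.11), Golgb1 (0.11) and Mocs1 (0.13).

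**Figure D4:**
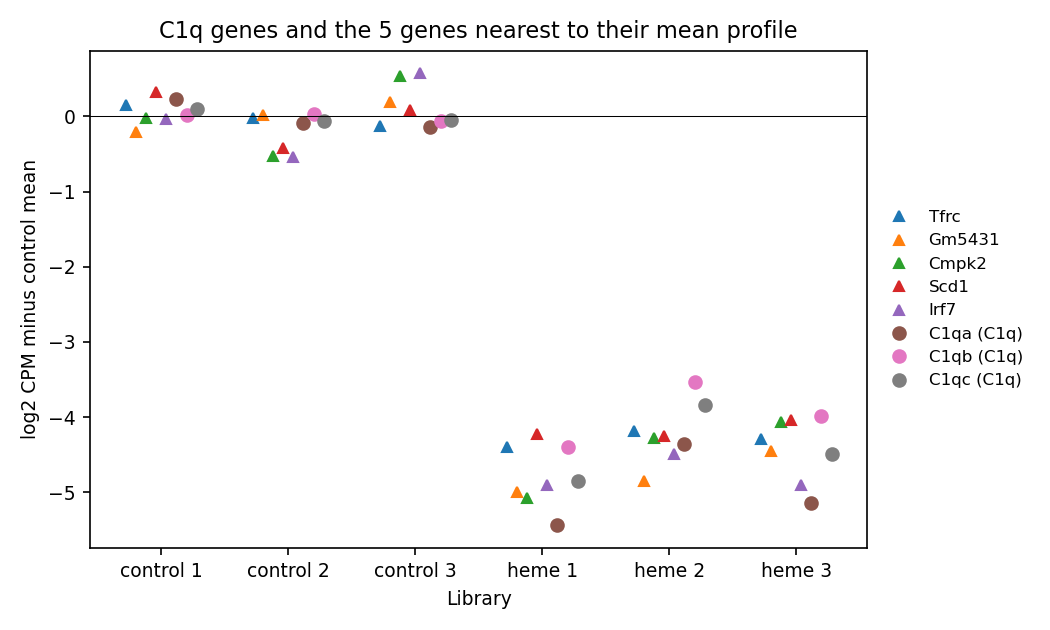
Log2 CPM minus the control mean (y axis) in the 6 libraries (x axis) for C1qa, C1qb and C1qc (circles) and the 5 genes nearest to their mean (triangles). Controls scatter around 0 and all heme libraries lie more than 3 log2 units lower, with C1qb and C1qc highest in heme replicate 2.

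Markers of cell types were measured in the same libraries. Of 10 macrophage markers, 8 were called lower and 1 higher, where all genes tested gave 30.8% lower and 31.7% higher. Their summed level, mostly Lyz2, was 33100 to 38800 CPM in control and 36400 to 39600 CPM in heme libraries. The falls of the 8 ran from 1.34-fold for Cd68 to 35.4-fold for Mrc1 (1030 to 29.15 CPM, means, n = 3). Adgre1 and Csf1r, defining genes of macrophages, were each 1.52-fold lower, at 677.4 and 1480 CPM with heme (means, n = 3). Of 12 neutrophil markers, 9 passed the filter, 3 of them (Mpo, Elane and Cxcr2) only through the heme libraries, where they were high. Of these 9, 8 were called higher, where all genes tested gave 31.7%. The sum of the 12 went from 36.7 to 50.8 CPM in control to 1350 to 1480 CPM in heme libraries. It mostly followed Mmp8 (means of 30.8 and 1296 CPM), and whether it reflects neutrophil content was not tested. The next highest with heme were S100a8 (means of 2.02 and 34.3 CPM), S100a9 (3.41 and 26.0 CPM) and Mpo (0.01 and 22.3 CPM). Mmp9 did not pass the test, and Ly6g was at most 0.22 CPM in any library. Of 10 monocyte markers, 6 were called higher and 2 lower (31.7% and 30.8% of all genes tested). Of these 8, 3 (Ly6c2, Plac8 and Ms4a4c) passed the filter only through the group where they were high. The monocyte sum was 940 to 991 CPM in control and 1290 to 1340 CPM in heme libraries. It was mostly S100a4 (means of 821.2 and 929 CPM), which did not pass the test. Vcan (means of 1.15 and 127.4 CPM) and Ly6c2 (0.33 and 39.1 CPM) were among the 6 higher. Ccr2 (means of 23.55 and 12.64 CPM) was among the 2 lower. The part of these cell types in the complement results was not tested. The other lists were scarce: the summed level was at most 1.76 CPM for 8 dendritic cell markers, 1.42 CPM for 10 stromal markers (Dcn and Lum at 0), 2.04 CPM for 5 B cell markers and 7.37 CPM for 8 T and NK cell markers, mostly Cd4 (Cd3e and Cd8a at 0), and all 6 hepatocyte markers were at 0 in every library.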

How the data were processed

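RNA of BMDMs from 3 control and 3 heme cultures was measured. The authors deposited raw read counts per Ensembl gene, 1 table per library, without normalization; the submitters' processing notes name STAR 2.7.0, featureCounts and GRCm38.p5. The annotation release, strand setting and treatment of reads in overlapping genes were not stated in the sources used here. Symbols, positions and exon lengths came from GENCODE M21, which held 25664 of the 25700 identifiers. Counts were filtered with filterByExpr (minimum count 10), scaled by TMM and tested with glmQLFit and glmQLFTest in edgeR 4.0.16 (R 4.3.3), heme against control, unpaired, on the whole table. The alternatives were other scalings, filters and thresholds, DESeq2 1.42.0, limma-voom (limma 3.58.1), a replicate block and leaving out each library. The procedure was tested on simulated counts. A count of 0 allows up to 0.0829 to 0.119 CPM per library (3 counts; counting error only). Members, pathway and marker lists (neutrophil, monocyte, macrophage, dendritic cell, stromal, B cell, T and NK cell, hepatocyte) and motifs were chosen with earlier results of these data known. A pathway gene and a marker gene are not reported here and were left out of the list counts. Named were the 8 members, in each role group of the pathway list up to 3 called genes with the largest change and any with a mean log2 CPM of at least 5, the nearest tested neighbours, the 5 genes nearest in profile, and genes that overlap these. C2, Cd46, Cd55, Fcnb, Vsig4, Cd59b, the genes listed at 0 and single markers were chosen after their values were seen.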

Additional observations from a re-analysis of the deposited data

How the results depend on the processing

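Across 16 alternatives, C1qa, C1qb and C1qc were called lower in each, with log2 fold changes of -5.29 to -4.71, -4.18 to -3.74 and -4.66 to -4.13, and the number of the 8 genes called lower was 4 to 6. Against a log2 fold change of 1, Cfp and C3ar1 were not called; the other complement genes then gave 2 higher and 1 lower, and all genes 946 higher and 630 lower. With library sizes alone, 5 other complement genes were higher and 8 lower, and all genes gave 2580 higher and 5814 lower. Leaving out 1 library gave 6 to 6 of the 8 genes lower and 0 to 1 higher (C3, without control replicate 3), 4 to 5 other complement genes lower and 7 to 10 higher, and 3253 to 3968 genes lower and 3457 to 4071 higher overall. The ratio of C1qa to C1qb then differed by -1.09 to -0.90. Colec12 turned to 0.001 with a filter at 1 CPM and ran from -0.052 to 0.042 with 1 library left out (0.031 without control replicate 2, 0.042 without heme replicate 2), and Lrp1 ran from -0.397 to 0.06, positive without control replicate 3; the cause was not tested.

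Same-numbered control and heme libraries did not deviate together (correlations of residuals -0.0998, -0.142 and -0.0683), so the replicate block was an alternative only. With it, 6 of the 8 genes were lower and 0 higher, 5 and 8 of the other complement genes, and 3493 and 3671 of all genes; the ratio differences of the C1q genes, paired by number, were -1.01, -0.42 and -0.58 (exact p = 0.25, the smallest that 3 pairs allow). A sum of C4b and C4a was not run, as C4a was not analysed here. Depth limits C4b and C1s1, with 0 to 2 counts in 1 group.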

Other observations

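Of the other complement genes, 14 had 0 counts in all 6 libraries, among them Hc (the C5 gene), C6, C7, C8a and C8b of the membrane attack complex, Cfd (factor D) and the mannose-binding lectin genes Mbl1 and Mbl2; each library's 0 allows at most 0.119 CPM. Another 15 were detected below the filter and not tested, none above 0.514 CPM in any library. Of these, Fcnb, the ficolin B gene, was at 0.00995 ± 0.0172 CPM in control and 0.364 ± 0.130 CPM in heme BMDMs, Cd59b at 0.184 ± 0.0564 and 0.375 ± 0.0563 CPM, and Vsig4, the gene of a macrophage receptor for C3b, at 0.268 ± 0.154 and 0.0244 ± 0.0213 CPM (SD, n = 3). C2, whose gene product joins C4 in the classical convertase, was at 0.896 ± 0.259 and 0.564 ± 0.223 CPM and did not pass the test (adjusted p = 0.12), nor did Cd55, the decay-accelerating factor gene (adjusted p = 0.12).

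The genes beside the complement genes on the chromosome were also measured. Of the 12 nearest tested neighbours, 4 were called higher, 2 lower and 6 did not pass the test, where 62.5% of all genes tested were called. Of the 4, Ephb2 and Tnxb passed the filter only through the heme libraries, where they were high. On the sides of the C1q cluster, the ephrin receptor gene Ephb2 (44.1 kb away) had 8, 8 and 13 counts in control and 40, 34 and 37 counts in heme libraries, and Zbtb40 (80.9 kb away) was at 10.3 ± 1.21 and 12.4 ± 0.718 CPM (SD, n = 3; adjusted p = 0.0549). Beside C4b, the tenascin gene Tnxb (8.56 kb away) had 0, 0 and 3 counts in control and 30, 30 and 31 counts in heme libraries. On the other side of C4b, Stk19 (80.1 kb away) was called lower. It was at 15.5 ± 0.986 CPM in control and 11.5 ± 0.595 CPM in heme BMDMs (SD, n = 3; edgeR adjusted p = 0.00246).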
